A study of Mus musculus with 8 samples.

Results

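Collagen genes were examined in epididymal white fat, a visceral depot attached to the epididymis, taken from mice fed a high-fat diet. They were taken as every gene whose symbol is Col, a type number, the letter a and a chain number, which gave 44 genes of 31854 rows in the table, and none stood on more than 1 row. By type number, 11 are fibrillar, 6 are basement membrane collagens of type IV, 6 are beaded collagens of type VI, and the other 21 are fibril-associated, transmembrane, network-forming, multiplexin, anchoring or unclassed types. The comparison was between 4 libraries of wild-type mice (WT, replicates 1, 2, 3 and 5) and 4 of S273A mice (replicates 2, 3, 4 and 6). S273A mice carry a knock-in allele of Pparg, the gene of the nuclear receptor PPAR-gamma, that puts alanine in place of serine 273. The labels give no age, strain or zygosity, and do not say whether each library came from a separate mouse, so a p-value here reflects library-to-library spread, which may be technical. Whole tissue was used, so fewer cells of a type and less RNA per cell cannot be told apart.

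Collagens are trimers of chains wound around each other, and each chain has its own gene. Fibrillar collagens assemble into the tension-bearing fibres of connective tissue, type IV forms the sheet-like network of basement membranes, and type VI forms beaded filaments around cells. In adipose tissue every fat cell sits in a basement membrane, fibroblasts and progenitors make most of the fibrillar matrix, and deposition of matrix is part of the remodelling of the depot in obesity.

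Total counts ran from 14880239 to 18194889 per library, and between 19469 and 19896 rows had a count. No library of a genotype repeated another within counting error (the chi-square over rows was at least 7.41 per degree of freedom). All 8 adipocyte markers looked for were tested and summed to between 6322 and 9809 CPM (counts scaled to the TMM-corrected library size) per library. Epididymis and testis markers summed to at most 1.34 CPM, with 3 of 8 at 0 in all libraries.

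Stretches of DNA are shown near the starts of Col4a1 and Col4a2, whose genes lie head to head, and of Col3a1, the leading fibrillar gene. Any link between these stretches and the levels below was not tested. Sequences are from RefSeq on GRCm38.p6, read 5′ to 3′ on the gene's strand. Capitals mark a match to CCAAT or its reverse complement ATTGG in Col4a1 and Col4a2, and to TATAAA in Col3a1.
Col4a1 (chr8:11312954-11312983, minus strand): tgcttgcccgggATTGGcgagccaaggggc
Col4a2 (chr8:11312761-11312790, plus strand): ccgaggagctccCCAATttgttggcgctgc
Col3a1 (chr1:45311288-45311537, plus strand, the 250 bases before the start): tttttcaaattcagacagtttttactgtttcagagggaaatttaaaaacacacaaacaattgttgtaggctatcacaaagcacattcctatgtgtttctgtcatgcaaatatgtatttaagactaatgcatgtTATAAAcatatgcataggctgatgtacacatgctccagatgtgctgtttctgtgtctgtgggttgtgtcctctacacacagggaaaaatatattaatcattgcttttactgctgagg

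The windows of 300 bases around the starts of Col4a1 and Col4a2 share 78 bases, and both are rich in G and C (74% and 73.7%, against a median of 52.7% over 32851 windows of that length). The Col3a1 window holds 37.7% G and C. For Col4a1 and Col4a2 all 250 bases before the start lie in annotated exons, so the stretches shown are not free of transcribed sequence. For Col3a1 0 of the 250 do. Of the 44 genes, 35 had a window. On either strand CCAAT was found for 13 of the 35 (37.1%, against 37.4% of all windows), GGGCGG for 22 (62.9%, against 35.7%) and TATAAA for 5 (14.3%, against 13.6%). These are letter matches, and no count here bears on binding. Shares of members are per gene, some with more than 1 window, while the shares of all windows are per window. Windows were not matched on G and C content, and no difference between shares was tested.

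All type IV genes lie in such head-to-head pairs. On chromosome 8, Col4a1 (11198423 to 11312826, minus strand, GENCODE M21 on GRCm38) and Col4a2 (11312805 to 11449287, plus strand) overlap by 22 bases of exon. Col4a3 and Col4a4 on chromosome 1 are 0.071 kb apart, and Col4a5 and Col4a6 on chromosome X are 1.31 kb apart. Reads were made without strand, but exon bases shared with another gene were few: 13 of 44 members shared any, at most 6.07% of exon bases (Col9a3).

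Of all counts, collagen genes took 1.16% ± 0.15 in WT libraries and 1.13% ± 0.18 in S273A libraries (SD over 4 libraries of each genotype). Levels are compared between genes as normalised CPM per kb of the row's feature length. On that scale fibrillar genes held 45.2% of the collagen total over the 8 libraries, basement membrane genes 24.5%, beaded genes 19.4% and the others 10.8%. The first 5 genes, Col3a1, Col4a1, Col1a1, Col4a2 and Col6a1, together held 62.4%, and the first 15 held 97.1%. The length is the one deposited with each row, and how it was derived is not stated. It enters every level per kb: Col1a2 has 10086 bases against 5930 for Col1a1.

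The order of levels was stable between libraries for some neighbours and not for others. Col3a1, at 285 ± 48.3 CPM per kb (SD, n = 8), was above Col4a1, at 231 ± 36.1, in 8 of 8 libraries. Col4a1 was above Col1a1 (187 ± 33.1) in 7, and Col1a1 above Col4a2 (158 ± 25.3) in 7. Col4a2 was above Col6a1 (150 ± 26.95) in all 8, although their means were closer than the spread between libraries. Col5a3 (63.2 ± 10.6) and Col6a3 (61.3 ± 10.3) did not separate, with Col5a3 higher in 3 of 8.

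**Figure D1:**
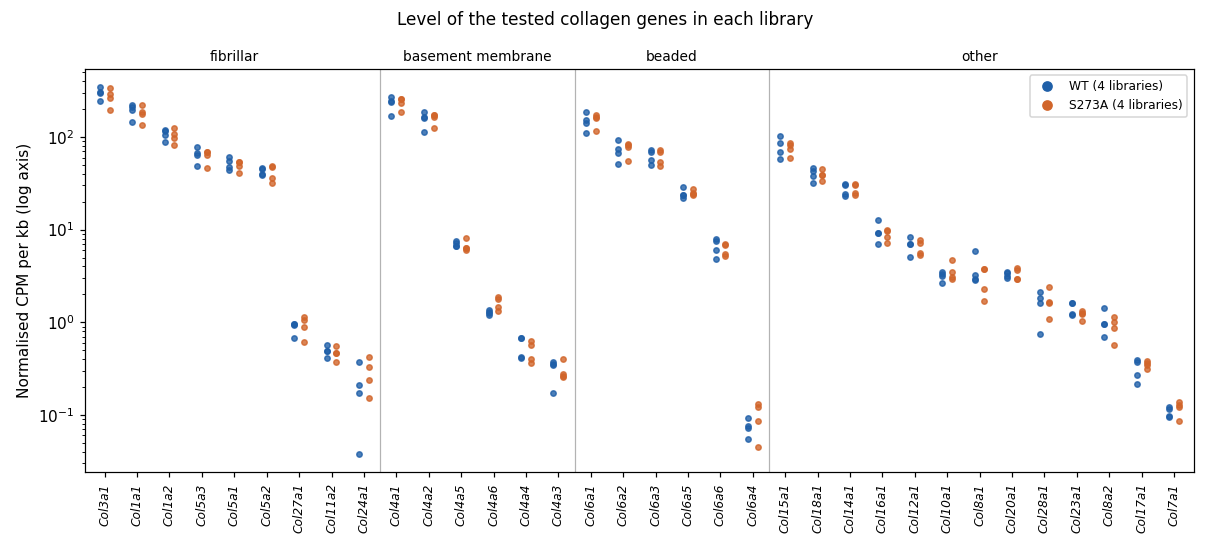
Level of the 34 tested collagen genes in each library, as normalised CPM per kb on a log axis, ordered by mean level within the 4 classes; blue points are the 4 WT and orange points the 4 S273A libraries. Col3a1, Col4a1 and Col6a1 lead their classes, levels within a class span more than a factor of 100, and the genotypes overlap for every gene.

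At the low end, 10 of the 44 genes did not pass the filter on low counts and were not tested. These were the cartilage genes Col2a1, Col9a1, Col9a2, Col9a3 and Col11a1 together with Col13a1, Col19a1, Col22a1, Col25a1 and Col26a1. Col9a1 had no count in any library, which does not show that it is absent, and Col11a1 had 3 counts over all 8. The others had between 5 and 70 counts in total. Whether they differed between genotypes was not tested.

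None of the 34 tested members was called at an adjusted p under 0.05 in edgeR's quasi-likelihood test, where 0% of all 15667 rows were called. DESeq2 and limma-voom also called none of them; over all rows DESeq2 called 0.00441% (1 gene, Gdf3) and limma-voom 0%. At an unadjusted p under 0.05 there was 1 member of 34, Col4a6, against 1.46% of all rows (0.913% higher and 0.549% lower in S273A). No member separated the genotypes without overlap, against 1.19% of all rows (0.657% higher and 0.53% lower in S273A). Estimates were positive for 15 and negative for 19 of the 34, with 50.7% of all rows positive, and the median log2 fold change was -0.03 against 0.0015 over all rows. The tally of signs depended on single libraries: 25 were positive without S273A replicate 3, 22 without WT replicate 3 and 10 without S273A replicate 6. The median half-width of the 95% confidence interval was 0.36 for collagen members and 0.24 for all rows. Changes smaller than that were mostly not detectable even before adjustment. A call needed more, because p was adjusted over all 15667 rows: Col4a6, with an interval of 0.07 to 0.61, was not called.

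Fibrillar genes had 2 positive and 7 negative estimates among 9 tested members, and a median estimate (log2 fold change) of -0.06, which was 0.04 without S273A replicate 3. Col3a1 encodes the homotrimeric collagen of soft, distensible tissue. It was at 1954, 2358, 2746 and 2462 CPM in WT replicates 1, 2, 3 and 5 and at 2119, 1574, 2352 and 2668 CPM in S273A replicates 2, 3, 4 and 6. The WT library with least Col3a1 was replicate 1 and the S273A library with least was replicate 3, and the remaining 6 libraries of both genotypes were interleaved. The edgeR estimate was -0.13 on the log2 scale (SE 0.16; 95% confidence interval -0.49 to 0.23; adjusted p 1.00), smaller than the spread of replicates. Without S273A replicate 3 the Col3a1 estimate was 0.006.

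Type I collagen, the main fibre-forming protein of connective tissue, is built from the chains of Col1a1 and Col1a2. Col1a1 was at 871, 1158, 1320 and 1253 CPM in WT and 1039, 792, 1115 and 1310 CPM in S273A, in the same order of replicates. Col1a2 was at 890, 1053, 1196 and 1180 CPM in WT and 979, 823, 1083 and 1250 CPM in S273A. The lowest library of each genotype was the same as for Col3a1. Their log2 fold changes were -0.11 (SE 0.17) and -0.06 (SE 0.14).

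Type V chains, which sit inside type I fibrils and limit their width, came next. Col5a3 was at 439 ± 82.0 CPM in the WT libraries and 422 ± 72.9 in S273A, Col5a1 at 444 ± 64.6 and 422 ± 52.9, and Col5a2 at 304 ± 28.8 and 293 ± 58.8 (SD, n = 4 each). In all of them the difference between means was smaller than either SD. Col27a1, Col11a2 and Col24a1 were below 1 CPM per kb. Col24a1 had the widest scatter of any fibrillar gene, with counts of 21, 47, 4 and 26 in WT and 20, 55, 42 and 28 in S273A, and its estimate of 0.52 had a confidence interval from -0.60 to 1.63.

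Basement membrane genes had 3 positive and 3 negative estimates among 6 tested members, and their median was -0.01 (0.08 without S273A replicate 3, -0.10 without WT replicate 2). Col4a1 and Col4a2 encode the chains of the type IV trimer found in nearly all basement membranes. Col4a1 was at 1566, 1114, 1785 and 1631 CPM in WT replicates 1, 2, 3 and 5 and at 1539, 1231, 1702 and 1711 CPM in S273A replicates 2, 3, 4 and 6. Col4a2 was at 1024, 728, 1201 and 1059 CPM in WT and at 1066, 808, 1126 and 1116 CPM in S273A. For both genes WT replicate 2 and S273A replicate 3 were the lowest libraries, and the other 6 lay close together whatever the genotype. Their estimates were 0.02 (SE 0.15, 95% confidence interval -0.32 to 0.37) and 0.04 (SE 0.16). Without WT replicate 2 they were -0.10 and -0.09.

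The remaining type IV chains were far less abundant. Col4a5, whose chain occurs in the basement membranes of kidney and smooth muscle, was at 42.96, 42.8, 49.5 and 46.9 CPM in WT and 38.9, 41.4, 53.4 and 41.3 CPM in S273A. S273A replicates held both its lowest and its highest value, and its estimate was -0.06 (SE 0.10). Col4a6, its head-to-head neighbour, was at 10.1, 9.55, 9.44 and 8.92 CPM in WT and 11.04, 13.3, 14.02 and 9.84 CPM in S273A replicates 2, 3, 4 and 6. Of the S273A libraries, 3 lay above all WT libraries and replicate 6 lay among them. The Col4a6 estimate was 0.34 (SE 0.12, 95% confidence interval 0.07 to 0.61), with an unadjusted p of 0.0184 and an adjusted p of 1.00 in edgeR, which did not pass. Leaving out 1 library at a time gave values between 0.26 and 0.43, and without S273A replicate 4 (0.26) its unadjusted p was no longer under 0.05. In that edgeR fit Col4a5 was the only member with an unadjusted p under 0.05, at a log2 fold change of -0.17, and it was not called. Col4a3 and Col4a4, chains of the kidney filter, were at 0.30 and 0.52 CPM per kb.

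Beaded collagen genes had 4 positive and 2 negative estimates among 6 tested members, and their median was 0.04 (-0.06 without WT replicate 2, 0.13 without WT replicate 3). The standard type VI trimer is built from the chains of Col6a1, Col6a2 and Col6a3, and the end of the Col6a3 chain is released as endotrophin. Col6a1 was at 560, 434, 739 and 612 CPM in WT replicates 1, 2, 3 and 5 and at 643, 458, 651 and 685 CPM in S273A replicates 2, 3, 4 and 6. WT replicate 3 was the highest library and WT replicate 2 the lowest, so the range within WT held every S273A value. Its estimate was 0.06 (SE 0.17, 95% confidence interval -0.32 to 0.43). Col6a2 was at 522, 397, 726 and 583 CPM in WT and 607, 435, 653 and 637 CPM in S273A (estimate 0.07, SE 0.18). Col6a3, the longest of these chains, was at 635, 562, 817 and 781 CPM in WT and 601, 547, 786 and 809 CPM in S273A (estimate -0.03, SE 0.16). WT replicate 2 and S273A replicate 3 were again its lowest libraries.

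The chains Col6a4, Col6a5 and Col6a6 are alternatives to Col6a3, and their genes lie in a row on chromosome 9 with gaps of 28.8 and 27.9 kb. Their levels differed widely despite this, at 0.085, 24.8 and 6.34 CPM per kb. Col6a5 ran from 203 to 268 CPM in WT and from 222 to 254 CPM in S273A, and its lowest library was WT replicate 1. Its within-genotype SD on the log2 scale was 0.135, against 0.29 for Col6a1 and 0.32 for Col6a2, a difference that was not tested. Col6a6 was at 49.2 ± 10.4 CPM in the WT libraries and 45.6 ± 6.90 in S273A, with an estimate of -0.11. Col6a4 had 6 to 16 counts per library, with an estimate of 0.37 and a confidence interval wide enough to include 0.

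Among the other types, multiplexins led. Col15a1 and Col18a1, whose chains sit at the border of basement membranes and release restin and endostatin, were at 77.3 and 39.4 CPM per kb. Col15a1 was at 369, 308, 551 and 455 CPM in WT replicates 1, 2, 3 and 5 and at 397, 313, 461 and 437 CPM in S273A replicates 2, 3, 4 and 6. Its lowest libraries were WT replicate 2 and S273A replicate 3, as for Col4a1 and Col6a1, and its estimate was -0.07 (SE 0.18). Col18a1 was at 245, 210, 302 and 280 CPM in WT and 255, 218, 293 and 254 CPM in S273A (-0.02, SE 0.12), with the same libraries lowest.

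Col14a1, a fibril-associated collagen that lies along type I fibres, followed another order. It was at 171, 210, 163 and 215 CPM in WT and 213, 166, 173 and 219 CPM in S273A. Its estimate was 0.02 (SE 0.12). WT replicate 2 was among its high libraries, and WT replicate 3, the highest for Col3a1, Col4a1, Col6a1 and Col15a1, was its lowest. Col16a1 and Col12a1, of the same kind, were at 9.17 and 6.64 CPM per kb. Their estimates were negative and smaller than the spread.

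The network-forming Col8a1, found in vessel walls, was at 16.4, 30.3, 15.0 and 14.7 CPM in WT and 8.75, 11.6, 19.3 and 19.3 CPM in S273A. WT replicate 2 was the highest of all 8 libraries. The Col8a1 estimate of -0.38 (SE 0.31) was the most negative of all tested members, and it was -0.06 without that library. Col10a1, a gene of cartilage at the growth plate, was at 9.81 ± 1.12 CPM in the WT libraries and 11.1 ± 2.45 in S273A (0.19, SE 0.16), the highest estimate among the 13 tested members of the other types. Without S273A replicate 3 the Col10a1 estimate was 0.03. Those 13 had 6 positive and 7 negative estimates and a median of -0.02 (0.05 without WT replicate 3). The transmembrane Col23a1 was at 8.02 ± 1.35 and 6.85 ± 0.70 CPM, and Col17a1 and Col7a1, genes of the skin's anchoring structures, were at 0.33 and 0.11 CPM per kb.

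**Figure D2:**
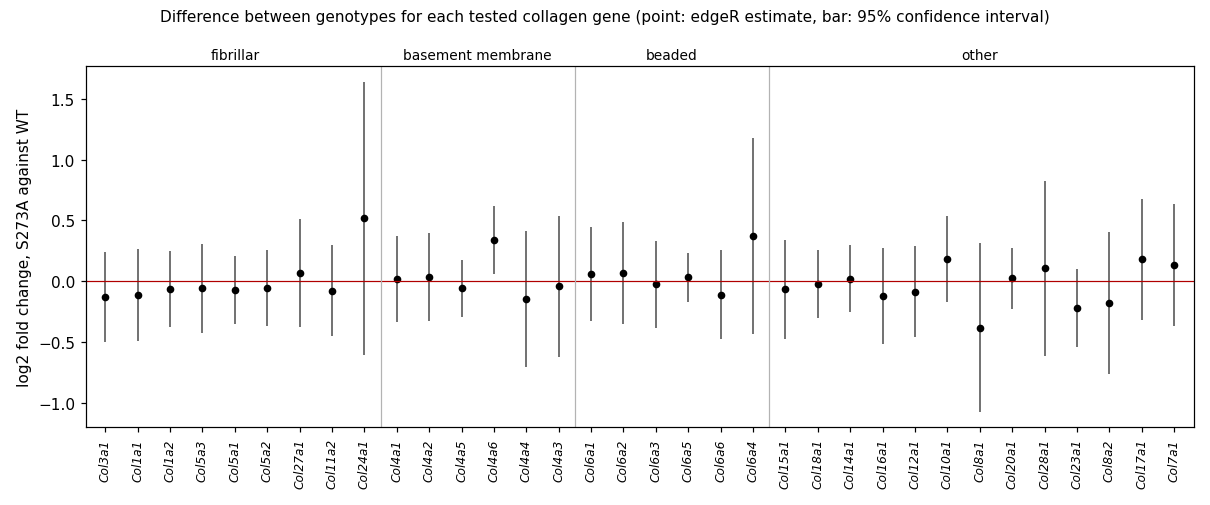
Log2 fold change of S273A against WT for each of the 34 tested collagen genes, ordered by level within class; points are edgeR estimates and bars 95% confidence intervals. The interval of Col4a6 (0.07 to 0.61) alone leaves out 0, before any adjustment, and Col24a1 and Col6a4 have the widest intervals.

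Class sums differed between genotypes by less than 1 SD of either genotype. Fibrillar genes summed to 759 ± 103 CPM per kb in WT and 708 ± 133 in S273A, basement membrane genes to 394 ± 74.8 and 402 ± 57.1, beaded genes to 311 ± 61.3 and 320 ± 48.4, and the others to 177 ± 27.1 and 172 ± 20.6 (mean ± SD of 4 libraries; no test was made of a sum over chosen genes). As a share of collagen CPM, fibrillar genes held 50.2% ± 3.82 in WT and 48.0% ± 1.57 in S273A, and basement membrane genes 22.3% ± 2.61 and 23.5% ± 0.73.

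The larger differences were between libraries of the same genotype. In WT replicate 2 the fibrillar share was 55.5% and the basement membrane share 18.9%, against 46.4% to 50.3% and 22.2% to 25.3% in the other 7 libraries. Its fibrillar sum of 727 CPM per kb was above those of WT replicate 1 (633), S273A replicate 2 (692) and S273A replicate 3 (533), while its basement membrane sum (289) and beaded sum (238) were the lowest of all 8. In S273A replicate 3 every class was low: the fibrillar sum was the lowest of the 8 libraries, and the basement membrane (320) and beaded (249) sums the lowest but for WT replicate 2.

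Sums of some cell type markers, but not of all, were lowest or highest in these libraries. WT replicate 2 and S273A replicate 3 had the lowest sums of the 8 adipocyte markers (6322 and 7424 CPM, against 8308 to 9809 in the other 6). They also had the lowest sums of the 8 endothelial markers (613 and 709 CPM, against 725 to 921). The 8 macrophage markers summed to 4100 CPM in WT replicate 2, the highest of all libraries, and to 3751 in S273A replicate 3. The 10 fibroblast and progenitor markers, at 1192 and 1215 CPM in these libraries, were inside the range of the other 6 (1069 to 1424). Pericyte and smooth muscle markers were lowest in WT replicate 2 (499 CPM), but at 646 in S273A replicate 3 they were inside the S273A range (550 to 815). Mesothelial markers were at 241 CPM in WT replicate 2, the highest of WT, and at 260 in S273A replicate 3. Adipocyte sums of the genotypes overlapped (6322 to 9809 CPM in WT, 7424 to 9681 in S273A), as did fibroblast sums (1192 to 1381, 1069 to 1424). Estimates were positive for 10 of 10 mesothelial markers (median 0.28; sums of 145 to 241 CPM in WT and 205 to 285 in S273A) and 6 of 6 red blood cell markers (median 0.60; 235 to 350 and 259 to 499), with 0 called. Red blood cell sums were 452 and 499 CPM in S273A replicates 4 and 6 but 259 and 279 in replicates 2 and 3. Estimates were also positive for 8 of 8 endothelial markers (median 0.09) and 7 of 8 adipocyte markers (median 0.05). They were negative for 7 of 8 macrophage markers (median -0.12). Fibroblast and progenitor markers had 4 positive and 6 negative (median -0.04), pericyte and smooth muscle markers 6 and 2 (median 0.09), and Schwann cell markers 2 and 1. Again 0 were called, and markers of a list are not separate observations. No marker of the adipocyte, endothelial, macrophage and fibroblast lists was at 0 in all libraries. The part of cell composition in the collagen values was not tested.

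**Figure D3:**
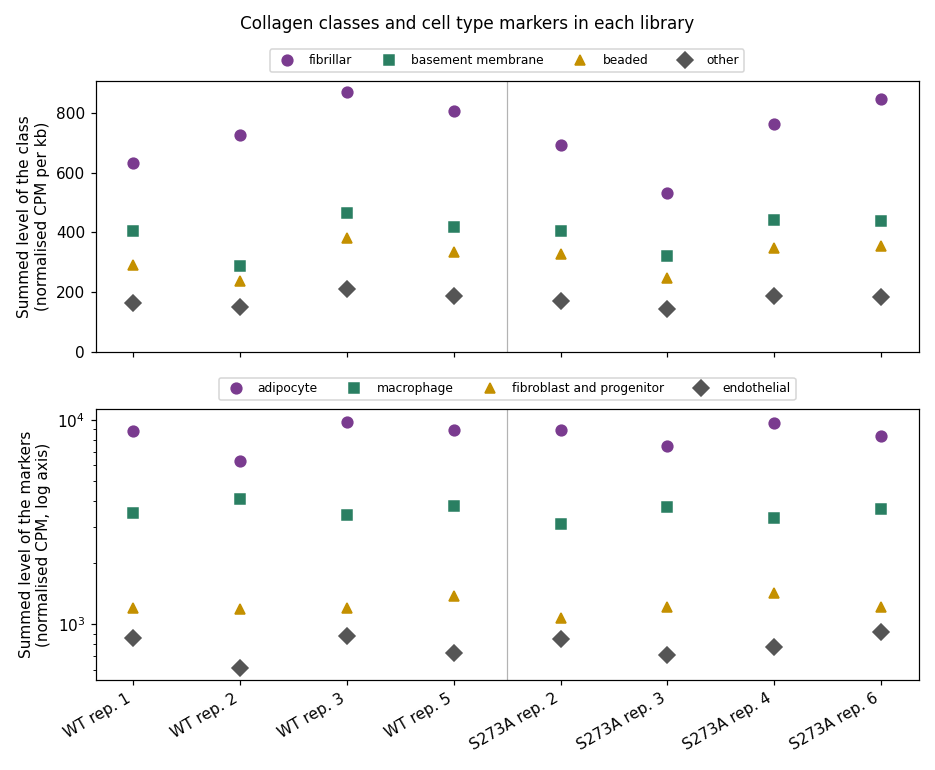
Top: summed level of each collagen class in each library, in normalised CPM per kb, with the 4 WT libraries to the left of the line and the 4 S273A libraries to the right. Bottom: summed normalised CPM of cell type markers on a log axis; WT replicate 2 and S273A replicate 3 are lowest both in basement membrane and beaded collagens and in adipocyte markers.

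The more abundant collagen genes varied more between libraries of a genotype than most rows above the same minimum level. Of the 19 members whose log2 CPM averaged 5 or more, a level chosen after the values were seen, 19 had a within-genotype SD on the log2 scale above the median of the 6504 tested rows at that level. Their median SD was 0.27, against 0.10 for those rows. The rows were not matched on level above that minimum. The spread was not particular to collagens: the 8 adipocyte markers had SDs from 0.147 to 0.307. The 7 tested proteoglycan genes were mixed. Their SDs were 0.299 for Aspn, 0.269 for Lum, 0.261 for Prelp, 0.171 for Fmod, 0.149 for Bgn, 0.095 for Ogn and 0.059 for Dcn. The collagen members share their libraries, so they are not separate observations.

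Col1a1 with Col1a2, Col4a1 with Col4a2 and Col6a1 with Col6a2, pairs of chains of the same molecule, rose and fell together across libraries. Other partner chains, such as Col6a3 with Col6a1 or the chains of type V, were not among the pairs computed. No pair with a gene outside the collagens was computed, so whether these values are particular to partner chains was not tested. Correlations of log2 CPM were computed for 8 pairs of genes over 8 libraries, with two-sided exact permutation tests and Benjamini-Hochberg adjustment over the 8. Pearson's r was 0.99 for Col1a1 with Col1a2 (p = 0.000149, adjusted 0.000397; Spearman's rho 0.95, p = 0.00114, adjusted 0.00304). It was 0.99 for Col4a1 with Col4a2 (p = 0.000198, adjusted 0.000397; rho 0.90, p = 0.00456, adjusted 0.0073) and 0.99 for Col6a1 with Col6a2 (p = 7.44e-05, adjusted 0.000298; rho 0.98, p = 0.000397, adjusted 0.00159). For Col1a1 with Col3a1, whose products share fibrils, r was 0.98 (p = 2.48e-05, the smallest the permutations can give, adjusted 0.000198; rho 1.00, p = 4.96e-05, adjusted 0.000397). Without the 2 libraries farthest from the median of the first gene, r was 0.96, 0.90, 0.97 and 0.97 in the order given. On deviations from the genotype means it was 0.99, 0.99, 0.99 and 0.98.

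Pairs from different classes did not all behave alike. Col4a1 with Col6a1, of the basement membrane and beaded classes, had r = 0.96 (exact permutation p = 0.000471, adjusted 0.000754; rho 0.93, p = 0.00223, adjusted 0.00446), and 0.79 without the 2 farthest libraries, WT replicate 2 and S273A replicate 3. Col1a1 with Col4a1 had r = 0.48 (exact permutation p = 0.213, adjusted 0.213; rho 0.69, p = 0.0694, adjusted 0.0925), and Col1a1 with Col6a1 had 0.59 (exact permutation p = 0.114, adjusted 0.13; rho 0.64, p = 0.0962, adjusted 0.0962). Without the 2 libraries farthest from the median of Col1a1 they were 0.37 and 0.32. Both depended on 1 library: without WT replicate 2 they were 0.855 and 0.892, each with an adjusted exact permutation p of 0.0068. The neighbours Col3a1 and Col5a2, 24.6 kb apart on chromosome 1 in opposite directions, had r = 0.86 (exact permutation p = 0.00578, adjusted 0.00771), but rho was 0.64 (p = 0.0962, adjusted 0.0962), r was 0.75 without the 2 farthest libraries, and without S273A replicate 3 it was 0.717 and did not pass (adjusted p 0.113). Whether the correlations of 2 pairs differ was not tested, and all pairs share libraries and scaling. On deviations from the genotype means these 4 pairs had r of 0.96, 0.51, 0.64 and 0.86 in the order given.

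**Figure D4:**
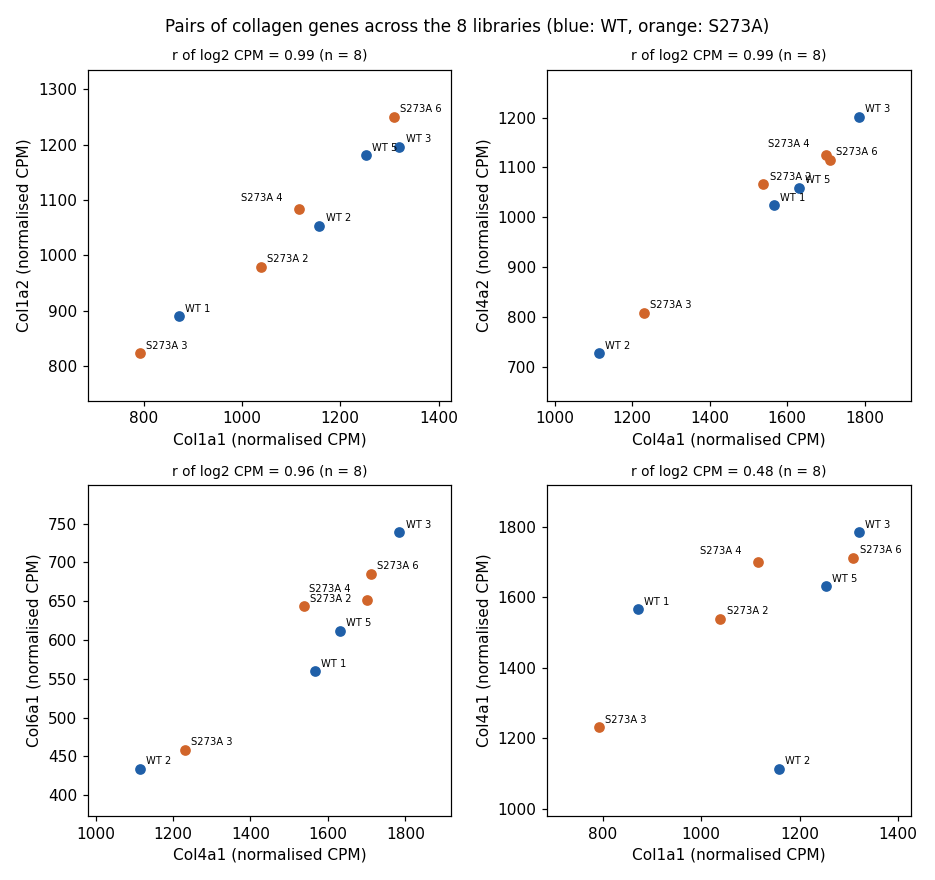
Normalised CPM of 4 pairs of collagen genes, 1 point per library (blue WT, orange S273A, with the replicate number), with Pearson's r of log2 CPM above each panel. The pairs Col1a1 and Col1a2, Col4a1 and Col4a2, and Col4a1 and Col6a1 lie along a line. In the panel of Col1a1 and Col4a1, WT replicate 2 lies apart, within the range of the others in Col1a1 and lowest in Col4a1.

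Ratios of partner chains within a library showed no difference between genotypes that passed the test. Col1a1 to Col1a2 per kb was 1.80 ± 0.099 in WT and 1.74 ± 0.075 in S273A (SD over 4 libraries; two-sided exact permutation p = 0.371, adjusted over 4 ratios 0.686, where the smallest p that 4 against 4 can give is 0.0286). Col4a1 to Col4a2 was 1.48 ± 0.02 in WT and 1.46 ± 0.04 in S273A (exact permutation p = 0.514, adjusted 0.686). Col6a1 to Col6a2 was 2.09 ± 0.06 and 2.07 ± 0.07 (exact permutation p = 0.657, adjusted 0.686), and Col3a1 to Col1a1 was 1.55 ± 0.09 and 1.52 ± 0.04 (exact permutation p = 0.686, adjusted 0.686). The size of each ratio depends on the row lengths: in raw counts Col1a1 to Col1a2 was 1.04 and Col6a1 to Col6a2 was 1.05 on average. Differences between genotypes do not depend on length.

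Enzymes and chaperones that make collagen did not differ between genotypes in the test. Of 20 genes of biosynthesis, folding and secretion with a row, 18 were tested and 0 called, with 12 positive and 6 negative estimates and a median of 0.02. The smallest unadjusted p belonged to P3h4, a partner of lysyl hydroxylase, at 11.8 ± 0.75 CPM in WT and 13.5 ± 1.97 in S273A (0.19, SE 0.11). Next were P3h3, a prolyl 3-hydroxylase family member, at 28.8 ± 1.89 and 32.2 ± 4.58 CPM (0.16, SE 0.10), and Pepd, which frees proline from collagen fragments, at 113 ± 5.32 and 107 ± 11.6 CPM (-0.08, SE 0.08). The smallest adjusted p was 1.00.

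Of 12 genes of procollagen processing and cross-linking, 11 were tested and 0 called, with 10 positive estimates, 1 negative and a median of 0.06. Loxl4, a lysyl oxidase that cross-links collagen, was the 1 gene without overlap between the genotypes among the 49 tested genes of this and the other pathway lists, a share near the 1.19% of all rows (0.657% higher in S273A), so nothing is read from it. It was at 15.9, 15.7, 16.8 and 16.3 CPM in WT and at 17.2, 20.9, 17.35 and 17.6 CPM in S273A, so the lowest S273A library lay just above the highest WT library. Its log2 fold change was 0.18 (SE 0.08, unadjusted p 0.0552), and it did not pass. Tll1, a protease of the BMP1 family that trims procollagen, was at 6.17 ± 1.06 and 7.22 ± 0.62 CPM (0.23, SE 0.14), and Adamts14, which removes procollagen ends, had an estimate of 0.08 (SE 0.10).

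Collagen receptors and uptake genes had 13 tested members of 14, with 0 called, 5 positive and 8 negative estimates and a median of -0.01. Antxr2, a cell surface receptor that binds type VI, was at 174 ± 11.02 CPM in the WT libraries and 164 ± 10.6 in S273A (-0.09, SE 0.06). Lair1, an inhibitory collagen receptor of immune cells, was at 64.9 ± 10.7 and 56.7 ± 10.97 CPM (-0.20, SE 0.15), and Adgrg1, an adhesion receptor for type III collagen, at 59.3 ± 11.7 and 65.2 ± 5.58 CPM (0.14, SE 0.13). Fibril-associated proteoglycans had 7 tested members of 8, with 0 called, 5 positive and 2 negative and a median of 0.06. Fmod, fibromodulin, which regulates fibril growth, was at 36.7 ± 5.56 and 42.8 ± 3.004 CPM (0.22, SE 0.10, unadjusted p 0.0598), Ogn, osteoglycin, at 209 ± 17.98 and 202 ± 8.501 CPM (-0.05, SE 0.07), and Bgn, biglycan, at 419 ± 12.8 and 437 ± 64.9 CPM (0.06, SE 0.10).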

How the data were processed

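RNA was sequenced without strand information from rRNA-depleted total RNA as paired 36-base reads, per the labels' protocols. The authors deposited raw counts, as integers, for each row in 8 library columns. The deposited table also holds a length column, another quantity, in bases per row, used here for levels per kb. Per the submitters' processing notes, the tools were featureCounts 1.5.2, HISAT2 2.0.5, edgeR 3.3.0, bcl2fastq 2.20.0 and Picard 2.9.2, with no roles, and the build mm10. The annotation and the multi-mapping settings: not given in the sources used here.

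Counts were analysed with edgeR 4.0.16 in R 4.3.3: filterByExpr defaults (15667 of 31854 rows kept), TMM scaling, estimateDisp, robust glmQLFit, glmQLFTest for genotype with no covariate, and Benjamini-Hochberg adjustment over all tested rows, called at an adjusted p under 0.05. Log2 CPM used a prior count of 2 for SDs. Alternatives were DESeq2 1.42.0, limma-voom (limma 3.58.1), RLE size factors, no filter, summed rows, the replicate number as a block, and leaving out each library. The test was also run on simulated counts, in which genes were drawn independently, unlike the genes here that vary together. The outcome is not given here, and no result rests on it. Genotype came from the genotype label and the replicate number from the title. The members and lists were chosen with earlier results of these data known. Values in every library were given for the 3 most abundant members of a class and for members with an unadjusted p under 0.05 or no overlap, and the 3 pathway genes of smallest p per list were named; Col8a1, Col10a1, Col24a1, Col6a4, Col6a5 and other members were added after their values were seen. The 28 entries of the biosynthesis list include older names of the same genes. Ppib of that list and Loxl3 of the processing list had no row under those symbols and were not examined.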

Additional observations from a re-analysis of the deposited data

Results flagged for a closer look

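In 4 of 76 groups of 4 libraries examined (34 members and 4 class sums, in each genotype), 1 library lay far from the other 3, and chance alone flags about 1 group in 20. Col8a1 was at 30.3 CPM in WT replicate 2, against 14.7 to 16.4 CPM in the other WT libraries. Col4a3 was at 1.71 CPM in the same library, against 3.46 to 3.68 CPM in the others, and at 4.01 CPM in S273A replicate 2, against 2.53 to 2.76 CPM in the other S273A libraries. Col27a1 was at 7.57 CPM in WT replicate 5, against 10.6 to 10.9 CPM.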

How the results depend on the processing

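No collagen member was called under any setting run. Over all rows, 0 to 1 were called without 1 library, and 1 in DESeq2 (Gdf3, the gene also called without S273A replicate 4). The genotypes share only 2 replicate numbers, and the labels tie no number to a litter or day. Deviations from the genotype means correlated at -0.0844 for number 2 and -0.215 for number 3. Pairs with different numbers ran from -0.429 (WT replicate 5 with S273A replicate 3) to 0.468 (WT replicate 2 with S273A replicate 3). These values cannot decide whether libraries with the same number share a litter or day. With the replicate block, which leaves 1 residual degree of freedom, the fibrillar median was -0.313, and estimates changed sign for Col4a1 (-0.0349), Col4a2 (-0.0102), Col6a1 (-0.0609), Col6a2 (-0.0633), Col6a4 (-0.10), Adamts14 (-0.087), Ogn (0.0509) and Bgn (-0.11). Under that block Col8a1 was at -1.09 and was the only member with an unadjusted p under 0.05 (0.0367, adjusted 1.00), and Col4a6 was not under it (0.152). Over the shared numbers, a block chosen after seeing the data, the log2 difference of the Col6a1 to Col6a2 ratio was 0.00234. The cause was not tested.

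Leaving out 1 library at a time, estimates ran from -0.24 to 0.00645 for Col3a1, -0.228 to 0.0118 for Col1a1, -0.167 to 0.0389 for Col1a2, -0.104 to 0.122 for Col4a1, -0.0895 to 0.143 for Col4a2, -0.0631 to 0.192 for Col6a1, -0.0658 to 0.224 for Col6a2, -0.118 to 0.0743 for Col6a3, -0.19 to 0.0943 for Col15a1, -0.112 to 0.0615 for Col18a1, -0.0445 to 0.0936 for Col14a1, -0.0727 to 0.0146 for Ogn and -0.044 to 0.12 for Bgn. Without a change of sign they ran from 0.0344 to 0.267 for Col10a1, -0.54 to -0.0635 for Col8a1, 0.0414 to 0.274 for Adgrg1 and -0.306 to -0.0771 for Lair1. Class medians ran from -0.125 to 0.0389 (fibrillar), -0.0966 to 0.0813 (basement membrane), -0.0645 to 0.126 (beaded) and -0.109 to 0.0507 (other), and log2 ratios of class sums from -0.195 to 0.0148, -0.0964 to 0.121, -0.077 to 0.129 and -0.118 to 0.0388 in that order. Log2 ratio differences ran from -0.0521 to 0.0116 for Col3a1 to Col1a1, -0.0295 to 0.00127 for Col4a1 to Col4a2 and -0.0346 to 0.00685 for Col6a1 to Col6a2. Correlations ran from 0.214 to 0.855 for Col1a1 with Col4a1, 0.365 to 0.892 for Col1a1 with Col6a1 and 0.717 to 0.905 for Col3a1 with Col5a2. Of 19 members followed, 7 kept their sign under all settings run. Of the 44 members, 10 did not pass the filter on low counts and were not tested.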
